A study of Mus musculus with 4 samples.

Results

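Matrix metalloproteinases are zinc-dependent enzymes that cut collagens, elastin, fibronectin and other proteins outside the cell. Most are made as inactive precursors and are held in check by TIMPs, the tissue inhibitors of metalloproteinases, which bind the active site. Macrophages release several of these enzymes, and thrombospondin-1, encoded by Thbs1, is a secreted matrix glycoprotein that restrains blood vessel growth. CD13 is an aminopeptidase of the cell surface, encoded by Anpep, and is itself known for roles in matrix breakdown and angiogenesis. Transcripts of 9 genes were followed: the metalloproteinases Mmp9, Mmp12, Mmp13, Mmp14 and Mmp19, the inhibitors Timp1, Timp2 and Timp3, and Thbs1. The genes were chosen by name, and all 16 probes that the platform annotation assigns to them were taken, out of 45281 probes on the array. A probe counted as measured when its detection p-value, the chance of its signal on background beads, was under 0.01 on 2 or more arrays. By that rule 9 of the 16 probes and 7 of the 9 genes were measured, against 14881 of the 45281 probes on the array.

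The samples were resting peritoneal macrophages from CD13 knockout (KO) mice and from wild type (WT) mice, both of the C57BL/6 strain, with 2 Illumina MouseWG-6 v2.0 arrays per group. The labels call all 4 samples peritoneal, whereas the series text speaks of cells from the peritoneum or bone marrow without saying which array held which; the labels were followed. The sources used here give neither the way the Anpep allele was made, nor age or sex, nor the number of animals behind an array. The spread between the 2 arrays of a group may therefore be technical, and p-values measure only that spread. The median signal before normalization was 122.4 and 109.0 on KO arrays 1 and 2, and 167.1 and 127.6 on WT arrays 1 and 2, and 13659 to 14823 probes were detected per array. Anpep had log2 intensities of 11.12 and 11.03 in KO and 13.58 and 13.40 in WT macrophages, a log2 change of -2.41 ± 0.18 (SE, n = 2 each; limma adjusted p = 0.0265). The 11 macrophage markers present on the array were all measured, led by Lyz2 and Cd14. Their summed normalized intensity was 139400 and 136900 in KO and 150800 and 153800 in WT. Single markers differed more than this sum, and 0 of the 11 passed; those named next were chosen after their values were seen. Itgam, on chromosome 7 as Anpep is, had log2 intensities of 8.53 and 8.54 in KO and 9.96 and 10.29 in WT (log2 change -1.59 ± 0.19 SE; limma adjusted p = 0.15). Adgre1 had a log2 change of -0.51 ± 0.20 (SE; limma adjusted p = 0.533) and Cd163 of 1.45 ± 0.36 (SE; limma adjusted p = 0.365). None of the 7 mesothelial markers on the array was measured, and Dcn was the only one of 8 fibroblast markers, with Col1a1, Col1a2 and Col3a1 detected on 0 arrays.

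Mmp13 and Mmp12 lie next to each other in a group of metalloproteinase genes on chromosome 9, while Mmp14 lies on chromosome 14. The 250 bases before their transcription starts are shown because these 3 genes gave the lowest, a middle and the highest KO minus WT difference among the measured members. The sequences are from RefSeq on GRCm38.p6, on the plus strand, and the deposited files name no build. Capitals mark TGAGTCA or its other strand TGACTCA, the consensus of the AP-1 family of transcription factors, and, in Mmp14, GGGCGG, the core of the GC box. Both motifs were searched on both strands.
Mmp13, chr9:7272264-7272513: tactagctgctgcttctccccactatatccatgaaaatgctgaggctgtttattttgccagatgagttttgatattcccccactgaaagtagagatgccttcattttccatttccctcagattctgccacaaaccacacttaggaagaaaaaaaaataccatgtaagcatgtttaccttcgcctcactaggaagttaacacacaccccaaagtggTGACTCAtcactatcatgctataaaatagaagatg
Mmp12, chr9:7347124-7347373: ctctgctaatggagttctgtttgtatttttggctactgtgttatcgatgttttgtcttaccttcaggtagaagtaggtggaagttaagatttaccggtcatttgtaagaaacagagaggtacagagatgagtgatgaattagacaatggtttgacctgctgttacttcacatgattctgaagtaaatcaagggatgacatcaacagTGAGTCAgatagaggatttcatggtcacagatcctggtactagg
Mmp14, chr14:54431348-54431597: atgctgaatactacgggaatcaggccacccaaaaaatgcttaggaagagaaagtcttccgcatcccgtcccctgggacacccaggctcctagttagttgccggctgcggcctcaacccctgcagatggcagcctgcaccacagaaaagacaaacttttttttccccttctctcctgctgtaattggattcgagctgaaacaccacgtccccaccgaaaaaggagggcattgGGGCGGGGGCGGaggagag
Counted back from the start site, the AP-1 match begins 35 bases before the start of Mmp13 and 44 bases before the start shown for Mmp12. Another listed start of Mmp12 has no match in its 250 bases, nor do Mmp14, Timp1, Timp2 and Timp3. Over all 32851 promoter windows of this length 4.46% hold the AP-1 letters and 32.7% hold GGGCGG on either strand. Mmp14 has 2 GGGCGG copies, which do not overlap, and Timp1, Timp2 and Timp3 have 1 each. Mmp9, Mmp19 and Thbs1 had no entry in the promoter table. A match describes these letters only.

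Of the 7 measured genes, 0 passed at a limma adjusted p under 0.05 in either direction, where 0.0484% of 10335 genes and unnamed probes passed upward and 0.0484% downward. At an unadjusted p under 0.05 there were 2, Mmp13 with a lower and Mmp14 with a higher mean in the KO, against 5.08% of all features with a lower and 4.26% with a higher mean. The same 2 were the members whose KO and WT arrays did not overlap after normalization, a state shared by 19.1% of all features on the lower and 20.8% on the higher side. The median log2 change over the 7 was 0.01, equal at this precision to the median of 0.01 over all features tested. All 7 were detected on all 4 arrays, so none entered the comparison through a single group. In bulk RNA, fewer cells of a type and less RNA per cell cannot be told apart. For a single gene, 2 arrays against 2 allow no two-sided exact permutation p below 0.333.

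**Figure D1:**
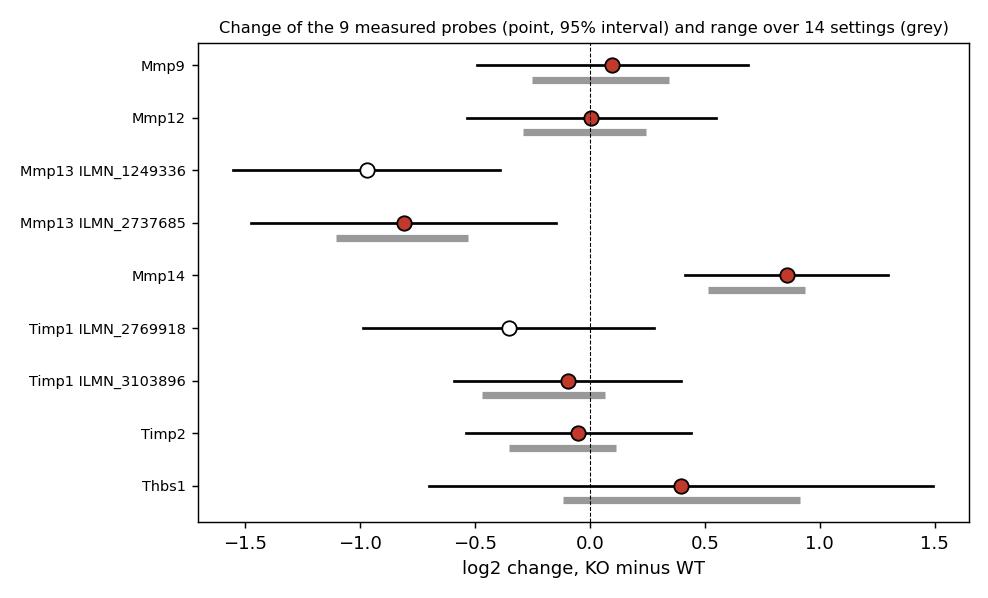
KO minus WT log2 change (x axis) of the 9 measured probes, with its 95% limma interval (black line) and, for the probe that stands for each gene, the range of the change over 14 other settings (grey bar). Filled points stand for genes and open points are further probes. The intervals of Mmp13 (2 probes) and Mmp14 lie on opposite sides of 0, and those of the other members span it.

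Mmp14 encodes a membrane-anchored metalloproteinase that cleaves matrix at the cell surface and activates the precursor of the gelatinase encoded by Mmp2. Its detected probe had log2 intensities of 11.49 and 11.66 in KO and 10.67 and 10.76 in WT macrophages. Both KO arrays lay above both WT arrays, and the arrays within each group were close. The KO over WT fold was 1.81, with a 95% interval from 1.33 to 2.46 (log2 change 0.86 ± 0.18 SE, n = 2 each; limma adjusted p = 0.274). By unadjusted p, Mmp14 ranked 131 among the 10335 features, and 98.6% of features had a smaller KO minus WT value. Before normalization the signals were 2692.8 and 2310.6 in KO and 2378.2 and 1889.5 in WT, which overlap. Non-normalized signals were lower on both KO arrays than on both WT arrays for 69.2% of features and higher on both for 0.29%. The other Mmp14 probe, designed on another transcript record, was at background on all 4 arrays, with detection p-values of 0.265 and 0.644 in KO and 0.21 and 0.351 in WT. Mmp2, whose product Mmp14 activates, was detected on 0 arrays. When arrays were instead brought to equal medians, which shifts the median of all features by -0.33, the log2 change of Mmp14 was 0.51, or 0.84 relative to that shift.

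Mmp13 encodes the main interstitial collagenase of the mouse, which cuts fibrillar collagens. Its brightest probe had log2 intensities of 12.89 and 12.35 in KO and 13.65 and 13.22 in WT macrophages. A further measured probe had 8.57 and 8.23 in KO and 9.57 and 9.17 in WT. On both probes the 2 KO arrays lay below the 2 WT arrays. The brightest probe gave a KO over WT fold of 0.57, with a 95% interval from 0.36 to 0.90 (log2 change -0.81 ± 0.27 SE, n = 2 each; limma adjusted p = 0.452). The further probe gave a fold of 0.51, with an interval from 0.34 to 0.76 (log2 change -0.97 ± 0.24 SE; limma adjusted p = 0.336 over all kept probes). Probes of a gene read the same RNA and are not replicates. In the authors' normalized values, compared as plain log2 means, both probes differed by -0.80.

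The third Mmp13 probe fell just outside the detection rule, with detection p-values of 0.0128 and 0.0182 in KO and 0.00641 and 0.0107 in WT. It was detected on 1 array, WT array 1. Its signals before normalization were 165.62 and 145.49 in KO and 248.63 and 178.03 in WT, close to the background. After normalization its log2 intensities were 6.30 and 6.44 in KO and 6.45 and 6.30 in WT, which overlap, unlike those of the other Mmp13 probes. Mmp9 was the dimmest member inside the rule, with signals of 254.2 and 184.66 in KO and 306.33 and 283.01 in WT.

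Mmp13 was highest on WT array 1, followed by WT array 2, KO array 1 and KO array 2, which is also the order of the arrays' median signals before normalization. The part of overall signal in this order was not tested. Leaving out KO array 2 gave a log2 change of -0.53, leaving out WT array 1 gave -0.60, and leaving out KO array 1 gave -1.09. Over the 14 other settings the change of Mmp13 lay between -1.11 and -0.53 and that of Mmp14 between 0.51 and 0.93, with neither passing in any of them. The lowest value of Mmp13 is that with equal array medians, and relative to the shift of all features it was -0.78.

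Mmp14 and Mmp13 can be set against each other within an array, where a common scaling of the array cancels. The Mmp14 signal over the Mmp13 signal before normalization was 0.382 and 0.621 in KO and 0.137 and 0.194 in WT. Both KO arrays lay above both WT arrays. The KO over WT ratio of these values was 2.99-fold, and it was 3.18-fold after normalization. The pair was picked after its values were seen, so the ratio has no test and describes these 4 arrays only.

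**Figure D2:**
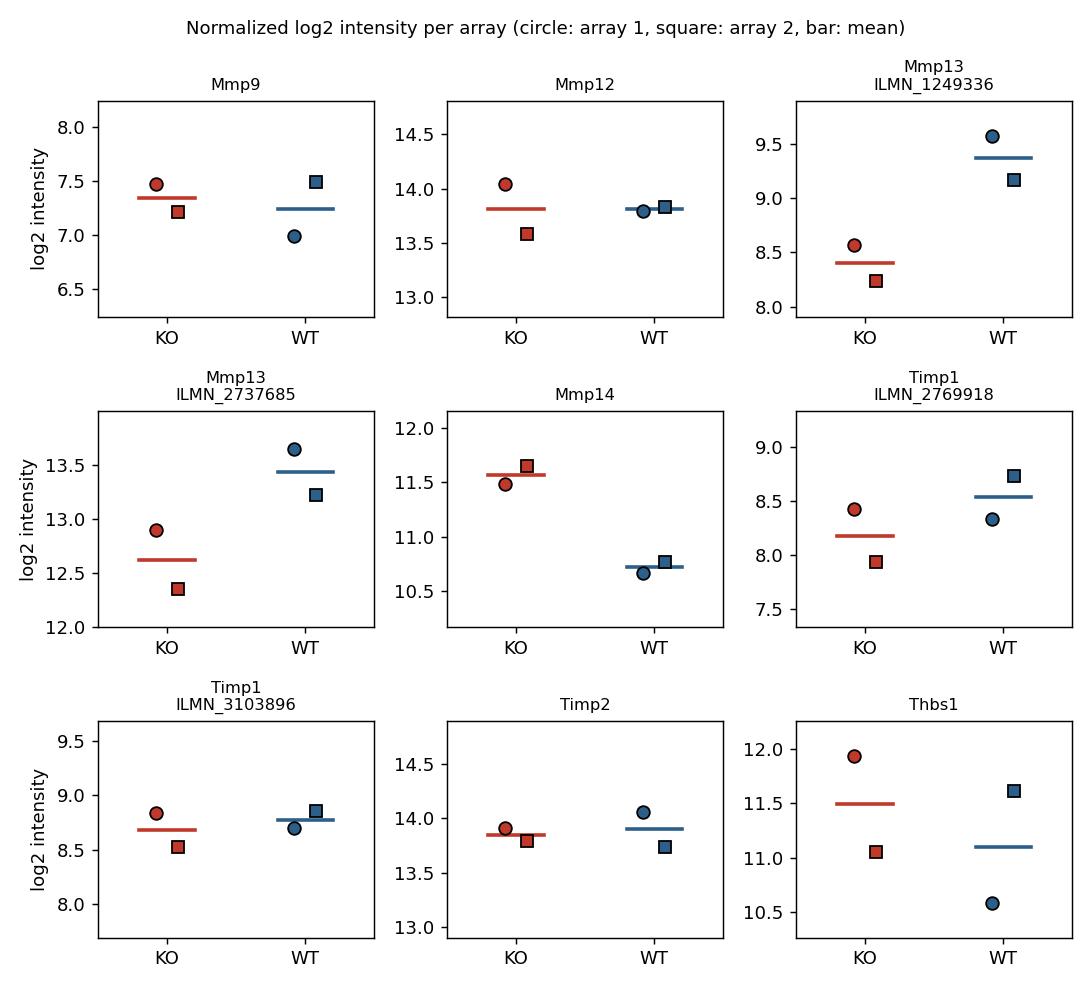
Normalized log2 intensity (y axis, each panel spanning 2 log2 units) of the 9 measured probes on KO and WT arrays, with circles for array 1, squares for array 2 and bars for group means. Both Mmp13 probes lie lower and Mmp14 higher on the KO arrays, without overlap, and the other probes overlap.

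Mmp12 encodes macrophage elastase, which degrades elastin. Its log2 intensities were 14.04 and 13.58 in KO and 13.79 and 13.83 in WT macrophages. The WT arrays lay between the 2 KO arrays. The KO over WT fold was 1.00, with a 95% interval from 0.69 to 1.46 (limma adjusted p = 0.997), so the data leave room for a difference of that size in either direction. The start shown for Mmp12 holds an AP-1 match, as that of its neighbour Mmp13 does, whereas the other listed start of Mmp12 holds none. Whether the changes of Mmp12 and Mmp13 differ was not tested.

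Mmp9 encodes a gelatinase that cuts denatured collagen and collagen of basement membranes, and it is stored by neutrophils as well as made by macrophages. Its log2 intensities were 7.47 and 7.21 in KO and 6.99 and 7.49 in WT macrophages. The KO arrays lay between the 2 WT arrays. The fold was 1.07, with a 95% interval from 0.71 to 1.61 (limma adjusted p = 0.942). Of 11 neutrophil markers on the array, 4 were measured, and Ngp, Camp, Elane, Mpo, Cxcr2 and Mmp8 were detected on 0 arrays. The summed intensity of the measured ones was 3634 and 3392 in KO and 2375 and 3407 in WT. S100a8, the brightest of them, had 11.09 and 10.78 in KO and 9.77 and 11.13 in WT, and so was lowest on WT array 1, as Mmp9 was. Csf3r, the next brightest, had 9.997 and 10.16 in KO and 10.39 and 9.58 in WT and was highest on that array. The other 2 measured ones are given after their values were seen. Ltf had 7.94 and 8.69 in KO and 6.90 and 5.73 in WT, without overlap (log2 change 2.00 ± 0.45 SE; limma adjusted p = 0.31). It was detected on 2 KO arrays and 1 WT array. S100a9 was detected on 1 array of each group and had a log2 change of -0.02. The part of neutrophil RNA in the Mmp9 values was not tested.

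Mmp19, a metalloproteinase of basement membranes and other matrix, was not measured. Its 2 probes had detection p-values of 0.0919 to 0.348 in KO and 0.0759 to 0.256 in WT, so no direction can be given for it.

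Timp1 encodes a soluble inhibitor that binds the Mmp9 product with high affinity. Its brighter probe had log2 intensities of 8.84 and 8.52 in KO and 8.70 and 8.85 in WT macrophages. A dimmer probe had 8.42 and 7.93 in KO and 8.34 and 8.73 in WT. The groups overlapped on both. The brighter probe gave a fold of 0.93, with a 95% interval from 0.66 to 1.32 (limma adjusted p = 0.928), and the dimmer probe a fold of 0.78, with an interval from 0.50 to 1.21 (limma adjusted p = 0.757 over all kept probes).

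Timp2 encodes the inhibitor that, besides blocking metalloproteinases, bridges the Mmp14 protein to the precursor of the Mmp2 gelatinase. Its log2 intensities were 13.91 and 13.79 in KO and 14.06 and 13.73 in WT macrophages. The KO arrays lay between the WT arrays, and the fold was 0.97, with a 95% interval from 0.69 to 1.36 (limma adjusted p = 0.967). Before normalization, Mmp9, Mmp13, Timp1 and Timp2 signals were all lower on both KO arrays than on both WT arrays, as for 69.2% of features, and after normalization this held for Mmp13 alone.

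Timp3 encodes an inhibitor that binds to the matrix itself. None of its 3 probes was measured. The one nearest to the rule had detection p-values of 0.016 and 0.0673 in KO and 0.0598 and 0.00855 in WT, and so was detected on 1 array. The other Timp3 probes had values from 0.39 to 0.963 in KO and 0.119 to 0.528 in WT.

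**Figure D3:**
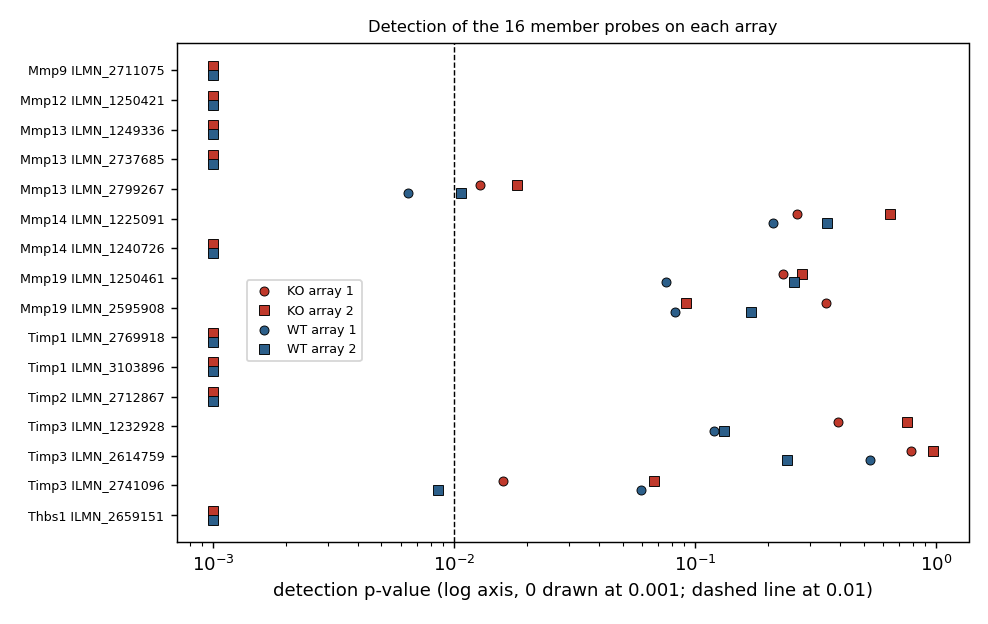
Detection p-value (x axis, log scale, with 0 drawn at 0.001) of all 16 member probes on the KO and WT arrays; the dashed line marks 0.01. The 9 measured probes lie at the left edge on all 4 arrays, and the third Mmp13 probe and a Timp3 probe straddle the line with 1 array each below it.

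Thbs1 was the member with the widest spread within groups. Its log2 intensities were 11.94 and 11.05 in KO and 10.58 and 11.61 in WT macrophages. KO array 1 and WT array 2 were the high ones and the groups overlapped. The fold was 1.32, with a 95% interval from 0.62 to 2.82 (log2 change 0.40 ± 0.44 SE, n = 2 each; limma adjusted p = 0.843). Leaving out WT array 1 turned the log2 change to -0.12 and leaving out KO array 1 to -0.04, while leaving out WT array 2 gave 0.91 and leaving out KO array 2 gave 0.83.

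Dcn, Bgn and Sparc, which encode matrix proteins typical of fibroblasts and other stromal cells, were also highest on WT array 2 and KO array 1; they were chosen after their values were seen. Dcn had log2 intensities of 9.19 and 7.64 in KO and 8.35 and 10.09 in WT. Sparc had 7.47 and 5.73 in KO and 5.92 and 7.74 in WT. Bgn had 7.25 and 6.57 in KO and 6.67 and 8.04 in WT. Sparc was above background on 1 array of each group and Bgn on 1 KO array and both WT arrays. Thbs1 was highest on KO array 1 and lowest on WT array 1, whereas these 3 genes were highest on WT array 2 and lowest on KO array 2. Because the 3 genes were chosen after their values were seen, sharing the 2 high arrays with Thbs1 carries no weight. Gata6 and Hdc, markers of large peritoneal macrophages and mast cells and also chosen that way, were highest on the same 2 arrays. The measured matrix genes Fn1 and Lamc1 were higher on both WT arrays than on both KO arrays. The part of stromal RNA in the Thbs1 values was not tested. Of 7 platelet markers, 2 were measured, Pf4 with a log2 change of -0.60 and Treml1 with 0.77. Their summed intensity, mostly that of Pf4, was 5420 and 4188 in KO and 6289 and 7688 in WT. Itga2b, Gp9 and Gp5 were detected on 0 arrays.

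**Figure D4:**
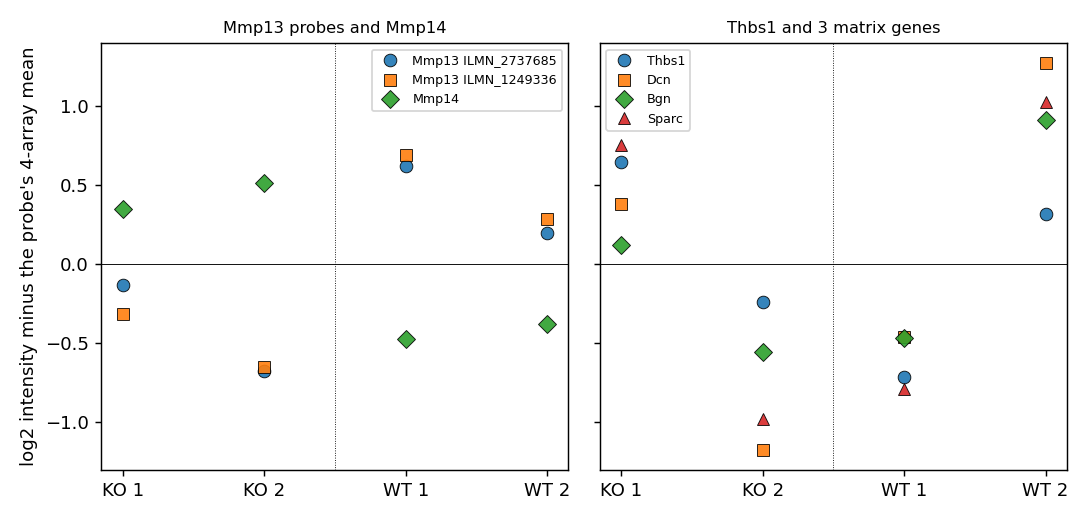
Log2 intensity minus the 4-array mean of the probe (y axis) on KO arrays 1 and 2 and WT arrays 1 and 2 for Mmp13 and Mmp14 (left) and for Thbs1, Dcn, Bgn and Sparc (right). Mmp13 and Mmp14 separate KO from WT in opposite directions, while Thbs1 and the 3 matrix genes are high on KO array 1 and WT array 2.

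The rest of the metalloproteinase family was mostly below detection. Of 18 further family members 16 were on the array and 4 were measured, namely Mmp1a, Mmp10, Mmp24 and Mmp28, of which 0 passed. Their median log2 change was 0.18, against 0.01 over all features. Mmp10, a stromelysin gene of the same chromosome 9 group as Mmp12 and Mmp13, had log2 intensities of 8.07 and 7.92 in KO and 7.63 and 7.21 in WT. Both KO arrays were above both WT arrays (log2 change 0.58 ± 0.21 SE, n = 2 each; limma adjusted p = 0.508). Mmp24, which encodes a membrane-type enzyme, had a log2 change of -0.31 ± 0.25 (SE; limma adjusted p = 0.775). In the order of the chromosome 9 group, Mmp13 and Mmp12 stand at one end, and Mmp1b, Mmp3, Mmp8, Mmp20 and Mmp7 were detected on 0 arrays.

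Among activators, inhibitors and binding partners of metalloproteinases, 8 of 15 genes on the array were measured and 0 passed, with a median log2 change of 0.15. Timp4 and Reck, a membrane-bound inhibitor, were detected on 0 arrays. Lcn2, whose product binds the Mmp9 enzyme in humans, had a log2 change of 0.36 ± 0.21 and Serpinb2, an inhibitor of plasminogen activators, of -0.61 ± 0.46 (SE; limma adjusted p = 0.69 and 0.762). Of 21 ADAM and ADAMTS genes on the array, 5 were measured and 0 passed, with a median of 0.14. Adam8, a membrane protease of leukocytes, had log2 intensities of 12.11 and 11.95 in KO and 11.65 and 11.30 in WT (log2 change 0.55 ± 0.20 SE; limma adjusted p = 0.509). It lies on chromosome 7, as Anpep and Itgam do. Other measured genes of the lists on chromosome 7 went both ways. Their log2 changes were -0.09 for Furin, 0.20 for Plaur, -0.13 for Stim1, 0.08 for Tgfb1, -0.33 for Fosb and -0.06 for Tyrobp. Cd22 had 0.93 and Lat, a T cell marker, 2.05. Distances along the chromosome were not compared, and the part of this location in the values was not tested. Adam9 had a log2 change of -0.16 ± 0.17 (SE; limma adjusted p = 0.838).

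Of 26 matrix substrate genes on the array, 5 were measured, and all 5 had a lower mean in the KO, where 48.2% of all features did; 0 passed, and the median log2 change was -0.63. Fn1, which encodes fibronectin, a substrate of several metalloproteinases, had log2 intensities of 13.26 and 12.32 in KO and 13.71 and 14.28 in WT. Both KO arrays were below both WT arrays (log2 change -1.20 ± 0.37 SE, n = 2 each; limma adjusted p = 0.426). Lamc1, which encodes a laminin chain, had a log2 change of -0.63 ± 0.19 (SE; limma adjusted p = 0.411). Marker lists of some cell types had lower medians in the KO and others did not. The median log2 change was 0.29 over 4 measured neutrophil markers and 0.08 over 2 platelet markers. For 2 measured T and NK cell markers it was 0.86, with 1 of them higher, and 0 passed. Their summed intensity was 1032 and 1176 in KO and 524.7 and 685.5 in WT. All 10 markers of large peritoneal macrophages, the main resident cells of the cavity, were measured and had a lower mean in the KO, with a median log2 change of -0.91, and 0 passed. Their summed intensity was 36390 and 30900 in KO and 37230 and 52160 in WT, highest on WT array 2. Fn1 followed the array order of this sum, while Mmp13 was highest on WT array 1. These orders were compared after the values were seen, so the match carries no weight. Of 5 measured markers of small peritoneal macrophages and monocytes 4 had a lower mean (median log2 change -0.55), with a sum of 12930 and 17890 in KO and 23710 and 20730 in WT. The same held for 4 of 5 measured B cell markers (median -0.85), with 3471 and 5109 in KO and 6559 and 7256 in WT, while the fifth, Cd22, named after its value was seen, had a log2 change of 0.93. Ms4a1, among those 4, was detected on 0 KO and 2 WT arrays. It thus entered through WT alone, where it is higher, and its lower mean carries no weight. A lower mean was found for 3 of 4 measured mast cell markers (median -0.62), with 1965 and 1296 in KO and 1753 and 2853 in WT. Among those 3, Cpa3 and Cma1 were each detected on 1 KO and 2 WT arrays, so the detection rule favoured a lower KO mean. Of these 3 lists, 0 markers passed. The part of these cells in the Mmp13 and Fn1 values was not tested.

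Of 17 genes of the thrombospondin family and its receptors, 10 were measured and 0 passed, with a median log2 change of -0.03. Thbs2, Thbs3 and Thbs4 were detected on 0 arrays, and Cd36, which encodes a thrombospondin receptor, on 1. Sdc1, a heparan sulfate proteoglycan that binds thrombospondin, had log2 intensities of 10.47 and 9.90 in KO and 9.52 and 9.26 in WT (log2 change 0.80 ± 0.25 SE; limma adjusted p = 0.436). Scarb1, a scavenger receptor related to Cd36, had a log2 change of 0.57 ± 0.33 (SE; limma adjusted p = 0.687) and was detected on 1 of the 2 WT arrays.

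Of 25 angiogenic factors and receptors, 14 were measured and 0 passed, with a median log2 change of 0.04. Angpt2, a ligand of the endothelial Tie2 receptor, had log2 intensities of 11.17 and 11.01 in KO and 10.26 and 10.07 in WT. Both KO arrays were above both WT arrays (log2 change 0.93 ± 0.18 SE, n = 2 each; limma adjusted p = 0.27). Pdgfb, which encodes a growth factor chain for pericytes, had a log2 change of -0.52 ± 0.18 (SE; limma adjusted p = 0.492).

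Of 15 transcription factors on the array known to act on metalloproteinase genes, 13 were measured and 0 passed. Of these, 12 had a lower mean in the KO, where 48.2% of all features did, and the median log2 change was -0.33. Among the AP-1 genes, given after their values were seen, the log2 change was -0.14 for Fos, -0.33 for Fosb, -0.17 for Fosl2, -0.41 for Junb, -0.42 for Jund and 0.21 for Jun. Their limma adjusted p lay between 0.647 and 0.866. The part of AP-1 factors in the values of Mmp13 and the other members was not tested. Ets1, a member of the ETS family, had log2 intensities of 9.05 and 9.61 in KO and 10.23 and 10.22 in WT (log2 change -0.89 ± 0.24 SE; limma adjusted p = 0.369). Stat3 had a log2 change of -0.36 ± 0.17 (SE; limma adjusted p = 0.605).

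**Figure D5:**
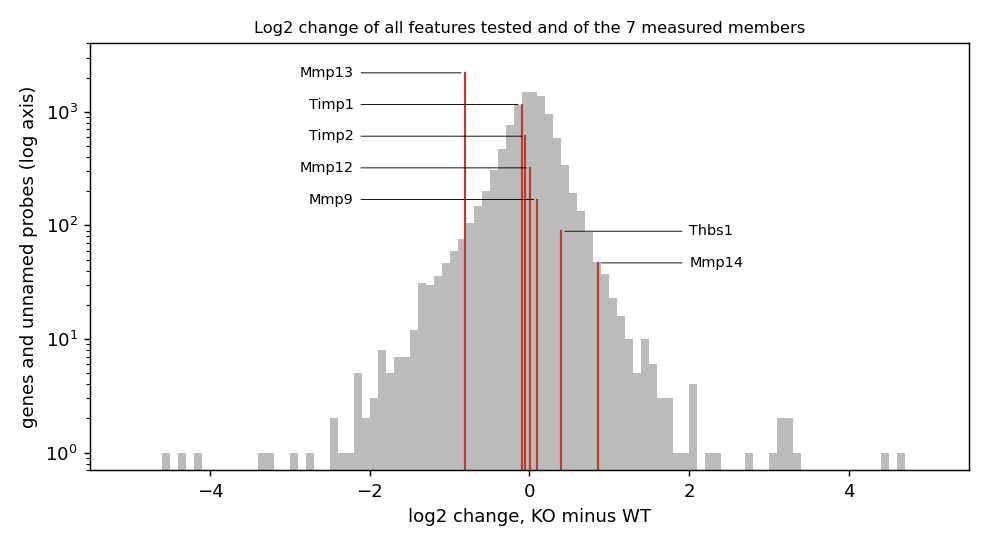
Number of genes and unnamed probes (y axis, log scale) by KO minus WT log2 change (x axis) for the 10335 features tested, with red lines at the 7 measured members. Mmp13 at -0.81 and Mmp14 at 0.86 lie on the flanks of the distribution and the other 5 near its centre or, for Thbs1, at 0.40.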

How the data were processed

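Biotin-labelled cRNA was hybridised to Illumina BeadChips, and the deposited signal table holds bead intensity per probe on a linear scale, not normalized between arrays, per the file headers. Beside each signal the authors deposited a detection p-value. A further deposited table holds intensities made by the authors with the quantile method of GenomeStudio, according to the series text. The version, and whether background was subtracted, are not stated in the sources used here. These values gave nearly the same results as quantile normalization without background correction, with log2 changes of -0.80 for Mmp13 and 0.81 for Mmp14 in both. Both also gave 7 higher and 10 lower features, so they do not count as separate settings that agree.

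Signals were processed with neqc (limma 3.58.1, R 4.3.3), which applies normexp correction from the detection p-values, an offset of 16, quantile normalization and a log2 transform. The 14881 measured probes were reduced to the probe with the highest mean per gene, giving 10335 genes and unnamed probes. Symbols came from the platform annotation (34885 probes with 1 symbol, 18 with several, 10378 with none), and 34807 were updated through RefSeq gene IDs. KO was compared with WT with limma (lmFit, eBayes), and p-values were adjusted by Benjamini-Hochberg over all 10335, and a further probe of a gene was adjusted over all kept probes. The fit was tested on simulated data. The number of arrays limits the precision.

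The members and gene lists were chosen with earlier results of these data known. Named were all members with all probes, Anpep, the 2 genes of each list with the smallest unadjusted p, and at most the 2 brightest markers of a cell type; others are said to be chosen after their values were seen or are given as detected or not. Alternatives covered background correction, offset, normalization, the authors' values, the detection filter, all probes, an intensity trend, the replicate number and single arrays.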

Additional observations from a re-analysis of the deposited data

How the results depend on the processing

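The 7 measured members gave 0 calls higher and 0 lower in each of the 14 other settings, and Mmp13 and Mmp14 kept their direction in all of them. The median log2 change of the members lay between -0.12 and 0.23 without single arrays. With median scaling it was -0.29, which is 0.04 relative to the median of -0.33 that this scaling gives all features. Fits without 1 array have fewer samples and take the spread of the lone array from the other group; elsewhere the cause was not tested. Over all features, the 5 lower calls became 10 without background correction, 8 with an offset of 50, 10 with the authors' values, 10 with an intensity trend and 9 when every kept probe was tested. Median scaling gave 15 higher and 194 lower, no filter on dim probes 3 and 2, and detection on all 4 arrays 1 and 3. Without single arrays there were 3 to 6 higher and 1 to 4 lower.

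With median scaling Mmp9 had a log2 change of -0.25 and Mmp12 of -0.29, which relative to that shift of all features are 0.08 and 0.04. Members near 0 turned sign in other settings. Mmp12 had -0.028 with cyclic loess and -0.21 to 0.24 without single arrays, and Mmp9 had -0.15 to 0.34. Without single arrays Timp1 ranged from -0.26 to 0.063, Timp2 from -0.21 to 0.11 and Thbs1 from -0.12 to 0.91. With the replicate number as a block, 6 features were higher and 7 lower, and no member was called. Same-numbered arrays share only a number, and their deviations correlated at -0.02 across features.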
